A study of Homo sapiens with 3 samples.

Results

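HepG2 cells carrying the short hairpin RNA sh#7 against FTO were compared with HepG2 cells carrying a control hairpin, across all genes with a measurable level. The comparison used 2 of the 3 libraries of the series and 11069 of the 21572 genes listed, those whose mean FPKM across all 3 libraries reached 1. An FPKM value counts a gene's sequenced fragments per kilobase of its transcript, relative to the mapped total of its library, so values of different genes are per length. Differences are log2(FPKM + 1) with sh#7 minus log2(FPKM + 1) with the control hairpin, a scale that understates the difference of low genes. A gene was counted as past 2-fold where that difference reached 1 in either direction.

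HepG2 (written Hep-G2 in the labels) is an established line from a human liver tumour. The control cells carried the shRNA labelled SHC002, which the series design calls a scramble, and the 2 knockdown lines carried sh#2 or sh#7, of which the design describes sh#7 as the more efficient. All 3 cultures were at passage 21 and were grown alike, in DMEM with serum and antibiotics. The sources used here do not say whether a line was 1 clone or a pool of cells, and they hold no hairpin sequence. There was 1 library per line, so nothing measures the spread between cultures, differences are given as values with no test, and an effect of FTO cannot be told apart from an effect of the line. The sh#2 library is shown beside sh#7 where its value helps to read it, and both share the control library.

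FTO is a demethylase that removes the methyl group of N6-methyladenosine (m6A), the commonest internal mark of messenger RNA. The mark is written by the METTL3 and METTL14 complex and read by YTH-domain proteins, which affect splicing, translation and decay of the marked transcripts. HepG2 cells keep much of the secretory programme of fetal and adult hepatocytes, which make most plasma proteins under a network of transcription factors that includes HNF4A, FOXA2 and the C/EBP family.

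FTO, on chromosome 16, measured 9.02 FPKM with the control hairpin, 5.29 with sh#2 and 2.55 with sh#7. The sh#7 level was 28.2% of the control (95% exact interval 23.9 to 33.05, from about 701 and 196 estimated fragments, covering counting error alone). The libraries thus rank as their labels describe. Single-fragment steps among low values put each library at an estimated 41.6 to 42.7 M (mega) fragments. The step of the control library was sought only within a set range of values, and the other depths were scaled to it. Fragment numbers and their intervals rest on this rough estimate. The table can list an expressed gene at exactly 0: LDHB, INSIG1 and VIM were listed at 0 in all 3 libraries, so such a value may be a failed estimate.

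With sh#7, 260 genes were past 2-fold higher (2.35% of those compared) and 275 were past 2-fold lower (2.48%). The lower set was the heavier by amount, taking 9.45% of all FPKM in the control library and 2.88% in the sh#7 library, while the higher set held 0.722% and 2.28%. The lower set also held the larger differences, with 60 genes past 4-fold and 21 past 8-fold, against 26 and 4 in the higher set. The median difference of all compared genes was 0.16, and 81.3% of genes lay within 0.5 of it. A scaling by the median of ratios moved all genes down by 0.16 and an upper-quartile scaling by 0.11. Higher genes made up 48.6% of the genes past 2-fold as deposited, 33.6% under the first scaling (1.73% of genes higher and 3.43% lower) and 38.7% under the second. List medians below are therefore given relative to the median of all compared genes. Counts within each list are to be read beside the shares of all compared genes, 2.35% higher and 2.48% lower as deposited. The calls marked below as removed by a scaling are all higher calls, since these scalings moved genes down. Equal summed FPKM, chosen after seeing the data, went the other way, with 306 genes higher and 237 lower. Lower calls near the threshold, such as VTN at -1.018, CFI at -1.013 and APOA5 at -1.008, are not marked for it and are no firmer.

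**Figure D1:**
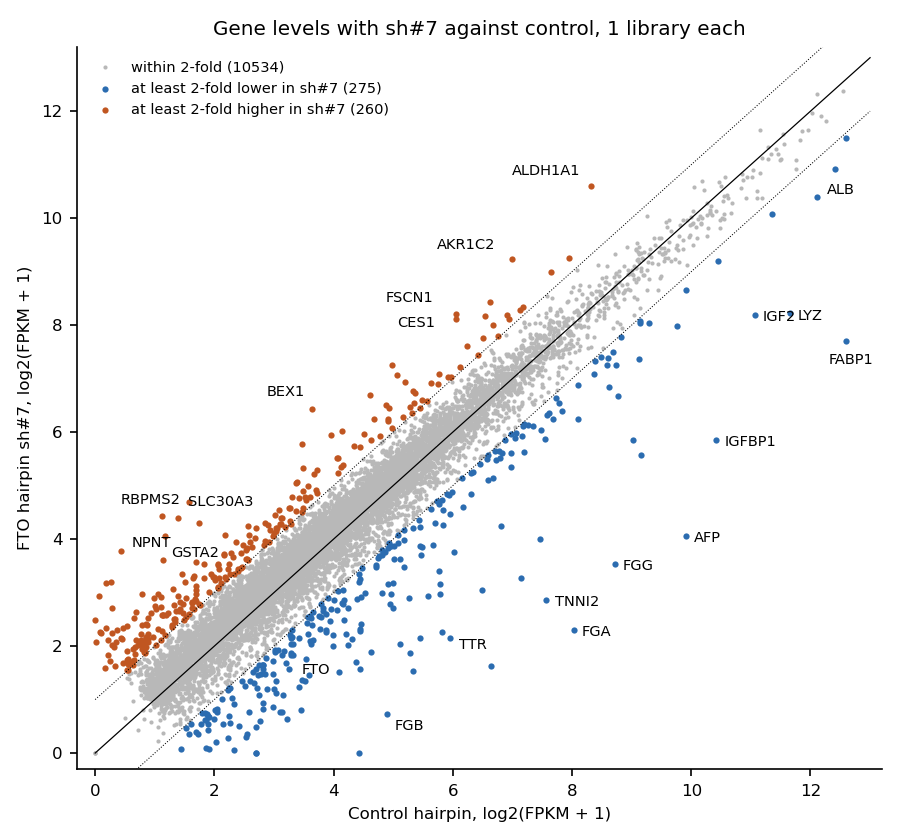
Level of each of the 11069 compared genes with the control hairpin (x axis) and with sh#7 (y axis), both as log2(FPKM + 1), 1 library each. Blue points are the 275 genes past 2-fold lower, orange points the 260 past 2-fold higher, the solid line is equality and the dotted lines are 2-fold; abundant genes past 2-fold lie mostly below the line, where 21 genes are past 8-fold.

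Lower genes were more frequent among abundant genes. Among genes with a mean of 500 FPKM or more, 12 of 163 were past 2-fold lower (7.36%), against 1 on the higher side (0.613%). In the band from 1 to 5 FPKM, 2.58% were lower and 3.92% were higher. Of the 50 most abundant genes of the control library, 7 were past 2-fold lower: APOA2, FABP1, ALB, AHSG, LYZ, APOA1 and IGF2. None of the 50 was past 2-fold higher, and 42 were still among the 50 most abundant with sh#7. These 50 were picked by their control value, which by itself favours lower over higher calls. At the threshold itself, F11 and CCL15 lay just inside the lower set at -1.002 and -1.001, and EPB41L2 and CCPG1 lay just outside it, both at -0.99. On the other side, CDH24 and DCBLD2 were just inside at 1.001 and 1.003, with ACY3 and REPIN1 just short of 1.

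The genes furthest below the control were mostly products of the fetal and adult liver. AFP, the fetal counterpart of albumin in plasma, had the largest difference, -5.85. It measured 961 FPKM with the control hairpin, 294 with sh#2 and 15.7 with sh#7, and its rank among the compared genes went from 87 to 4820. FABP1, the fatty acid carrier of the hepatocyte cytosol, was the second most abundant compared gene of the control library at 6167 FPKM, measured 2415 with sh#2 and 208 with sh#7, and had the largest loss of FPKM of any gene. Below, where 3 values stand in a row, they are for the control, sh#2 and sh#7 libraries in that order. The insulin-like growth factor binding protein gene IGFBP1 was at 1361, 175 and 57.03 FPKM, APOM, an apolipoprotein that carries sphingosine-1-phosphate, at 140.2, 41.5 and 8.70 FPKM, and CCL20, a chemokine, at 570.4, 405 and 46.4 FPKM. HEY1, a repressor downstream of Notch receptors, was at 39.5, 52.1 and 1.90 FPKM and so was low with sh#7 alone. C10orf10, also called DEPP1, a target of FOXO factors, was at 55.3, 10.6 and 3.82 FPKM, and BPIFB2, a member of the lipid-transfer BPI fold family, at 98.5, 24.5 and 2.08 FPKM. SCARNA22, a small RNA of the Cajal body, was at 20.5 FPKM in the control library and listed at 0 in both others, for which no ratio is given. The other genes among the 15 lowest (mean of at least 5 FPKM) were FGA, FGG, FGB, TTR, CP and TNNI2, described with their groups below.

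Proteins that hepatocytes secrete into plasma were the group with the most lower genes. Over 6 lists of such genes, 87 of 116 listed genes could be compared, and 35 of them were past 2-fold lower (40.2%, against 2.48% of all genes) and 5 past 2-fold higher. Together the listed genes took 7.65% of summed FPKM in the control library, 6.57% with sh#2 and 4.62% with sh#7. The median member differed by -0.93 relative to all genes, and with sh#2 by -0.24, with 7 members past 2-fold lower and 3 higher there (0.723% and 0.506% of all genes with sh#2). In bulk RNA, fewer cells making a product and less product per cell cannot be told apart.

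The promoters of this group were read for the TATA box, the element that places the start of transcription in many strongly regulated genes. TATAAA was searched on both strands in windows from 250 bases before to 50 after each RefSeq start (GRCh38.p14). Of 7937 compared genes with such a window, which gave 11591 windows, 5.69% of windows held it. The share was 14.3% among all genes past 2-fold lower and 10.4% among those past 2-fold higher. Among secreted liver protein genes it was 12.5% (11 of 88 windows), and among those past 2-fold lower 15.6% (5 of 32). These shares describe letters, not sites that were bound. The 250 bases before the start are printed for AFP and the 3 fibrinogen chains, which had the lowest differences within the 6 lists. They run 5′ to 3′ on the strand of the gene, with the match in capitals.
AFP (chr4:73435971-73436220, plus strand): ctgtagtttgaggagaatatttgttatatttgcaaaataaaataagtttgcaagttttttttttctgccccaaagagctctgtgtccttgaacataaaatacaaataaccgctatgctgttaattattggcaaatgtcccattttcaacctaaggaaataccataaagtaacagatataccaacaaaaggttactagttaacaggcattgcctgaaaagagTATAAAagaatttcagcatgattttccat
FGA (chr4:154590743-154590992, minus strand): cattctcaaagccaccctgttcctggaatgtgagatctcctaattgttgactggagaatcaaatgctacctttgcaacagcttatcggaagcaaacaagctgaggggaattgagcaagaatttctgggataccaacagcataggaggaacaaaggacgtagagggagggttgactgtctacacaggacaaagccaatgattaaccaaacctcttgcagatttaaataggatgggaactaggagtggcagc
FGB (chr4:154562730-154562979, plus strand, the first of 2 RefSeq windows): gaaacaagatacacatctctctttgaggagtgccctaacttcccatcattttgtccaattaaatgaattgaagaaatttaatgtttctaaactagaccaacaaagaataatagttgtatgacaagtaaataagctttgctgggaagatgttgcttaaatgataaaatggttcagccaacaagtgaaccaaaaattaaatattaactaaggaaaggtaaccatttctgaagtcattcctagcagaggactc
FGG (chr4:154612657-154612906, minus strand): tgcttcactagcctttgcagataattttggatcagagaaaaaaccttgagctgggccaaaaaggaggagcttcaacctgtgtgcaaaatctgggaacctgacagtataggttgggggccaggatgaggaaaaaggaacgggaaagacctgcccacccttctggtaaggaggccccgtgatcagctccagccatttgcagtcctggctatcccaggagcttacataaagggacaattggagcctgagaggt
The match lay 24 to 29 bases before the start in AFP. The absence of a match in FGA, FGB and FGG says only that these letters are not in these windows, and all 4 genes were among the lowest with sh#7.

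Of the 18 plasma carrier genes, 9 were past 2-fold lower and 1 higher (50% and 5.56%, against 2.48% and 2.35% of all genes). The median lay -1.09 relative to all genes. ALB, the most abundant plasma protein, was at 5468, 5501 and 1947 FPKM, so that the sh#2 library matched the control and the sh#7 library did not. The fetuin-A gene AHSG was at 4399, 2005 and 1353 FPKM and had the fourth largest loss of FPKM. Transthyretin (TTR), which carries thyroxine and, with RBP4, retinol, was at 61.1, 26.6 and 3.43 FPKM. RBP4 itself was less far below, at 961, 899.8 and 401 FPKM. CP, the copper-carrying ferroxidase ceruloplasmin, was at 175, 43.1 and 14.9 FPKM, and haptoglobin (HP), which binds free haemoglobin, at 101, 114 and 34.2 FPKM. TF, the iron carrier transferrin, stayed within 2-fold at 3471, 2379 and 1926 FPKM, as did the thyroxine carrier SERPINA7 at 65.2, 47.1 and 50.9 FPKM and the cortisol carrier SERPINA6 at 53.2, 60.8 and 49.4 FPKM. The exception was the vitamin D carrier GC, which measured 0.0543 FPKM in the control library, 2.13 with sh#2 and 3.80 with sh#7. ORM1 and ORM2, a near-identical pair whose reads may have been divided arbitrarily, were slightly above the control, at 309.8, 321 and 423 FPKM and at 160.4, 159.6 and 191 FPKM. Differences of carrier genes therefore ran from -5.85 for AFP to 2.19 for GC, which was near 0 in the control library and alone past 2-fold higher.

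Fibrinogen genes were the lowest of the coagulation list. The 3 chains of fibrinogen, the clot-forming protein, are neighbouring genes on chromosome 4 and were lower together. FGA was at 259.7, 219 and 3.96 FPKM, FGB at 28.6, 34.6 and 0.662 FPKM and FGG at 419.6, 454 and 10.6 FPKM, so that sh#2 stayed near the control for all 3 chains and sh#7 alone was low. FGB was the least certain of them, with about 43 estimated fragments with sh#7 and a level of 2.31% of the control (95% exact interval 1.66 to 3.11, counting error only). Of 17 compared coagulation and fibrinolysis genes, 6 were past 2-fold lower and 1 higher (35.3% and 5.88%, against 2.48% and 2.35% of all genes). In this list 13 lay below the median of all genes, and the relative median was -0.93. TFPI, the inhibitor of the tissue factor pathway, was at 434, 296 and 101 FPKM, PROZ, the vitamin K-dependent protein Z, at 6.03, 3.07 and 1.98 FPKM, and the zymogen gene F11 at 12.8, 12.5 and 5.88 FPKM. Prothrombin (F2) stayed within 2-fold at 445, 341 and 259 FPKM, and factor V (F5) lay above the control at 18.1, 20.8 and 28.5 FPKM. PROC and PROS1, the anticoagulant proteins C and S, were at 77.9, 56.6 and 72.02 FPKM and at 37.1, 33.1 and 42.2 FPKM. KNG1, which encodes kininogen, was the member past 2-fold higher, at 1.96, 3.18 and 5.06 FPKM, a call that both other scalings removed.

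In the complement system 5 of 19 compared genes were past 2-fold lower (26.3%, against 2.48% of all genes) and none was higher. The relative median was -0.79. C8A, a chain of the membrane attack complex, was at 7.16, 5.31 and 1.19 FPKM. MBL2, the mannose-binding lectin that starts the lectin pathway, was at 4.99, 4.03 and 0.703 FPKM, C2, a protease of the classical pathway, at 94.2, 73.96 and 44.3 FPKM, and CFI, which cleaves C3b, at 125, 122 and 61.3 FPKM. Clusterin (CLU), which inhibits the terminal complex, was at 212, 229 and 98.5 FPKM. C3, the central and most abundant component, was within 2-fold at 743, 667 and 693 FPKM, and the cell-surface regulator CD59 lay above the control at 15.3, 17.98 and 26.996 FPKM. C4A and C4B, at 6.75, 10.02 and 4.29 FPKM and at 6.74, 6.79 and 4.28 FPKM, are near-identical copies and cannot be read separately.

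Secreted proteinase inhibitors lay mostly below the median of all genes, 15 of the 17 compared. Of 17, 6 were past 2-fold lower and 2 higher (35.3% and 11.8%, against 2.48% and 2.35% of all genes). The relative median was -0.96. Antithrombin (SERPINC1) was at 43.4, 44.7 and 12.01 FPKM, alpha-1-antichymotrypsin (SERPINA3) at 554, 455 and 164 FPKM, and the C1 inhibitor SERPING1 at 6.02, 5.89 and 0.921 FPKM. Alpha-1-antitrypsin (SERPINA1), the most abundant of the list, was within 2-fold at 1437, 1277 and 895 FPKM. The higher members were SPINT1, a membrane-bound inhibitor of hepatocyte growth factor activator, at 2.55, 2.10 and 10.6 FPKM, and the trypsin inhibitor SPINK1 at 0.183, 2.43 and 2.30 FPKM.

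All 13 compared apolipoprotein genes lay below the median of all genes, and their relative median of -1.25 was the lowest of the secretory lists. Past 2-fold lower were 8 of them (61.5%, against 2.48% of all genes). The proteins of high-density lipoprotein were among them, with APOA1 at 2616, 2629 and 1081 FPKM and APOA2 at 6168, 3424 and 2877 FPKM. APOC3 and APOA5, which slow and speed the clearance of triglyceride by lipoprotein lipase, were at 124, 95.4 and 39.8 FPKM and at 32.7, 30.9 and 15.8 FPKM. APOF and APOA4, minor proteins of lipoprotein particles, were at 7.77, 3.21 and 2.55 FPKM and at 6.19, 3.19 and 1.77 FPKM. APOB and APOE, the structural protein and the receptor ligand of very-low-density lipoprotein, stayed within 2-fold at 337, 354 and 273 FPKM and at 1272, 1159 and 1111 FPKM, and APOC1 was level with the control at 536, 398 and 535 FPKM. MTTP, which loads lipid onto APOB, was past 2-fold lower at 16.02, 15.1 and 1.86 FPKM.

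The acute phase list overlaps the lists above, with fibrinogen, HP, CP and SERPINA3 in it. Of its 17 compared genes 8 were past 2-fold lower and 1 higher (47.1% and 5.88%, against 2.48% and 2.35% of all genes). The relative median was -0.96, and 13 members lay below the median of all genes. SAA4, the constitutive serum amyloid A, was at 111, 163 and 17.8 FPKM, and lipocalin-2 (LCN2), a siderophore binder, at 15.8, 12.1 and 7.17 FPKM. Hepcidin (HAMP), the hormone that blocks iron export, was the member past 2-fold higher, at 102, 171 and 257 FPKM. Members within 2-fold included C3, ORM1, ORM2 and the ferritin chain FTL, at 4404, 6171 and 5093 FPKM.

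**Figure D2:**
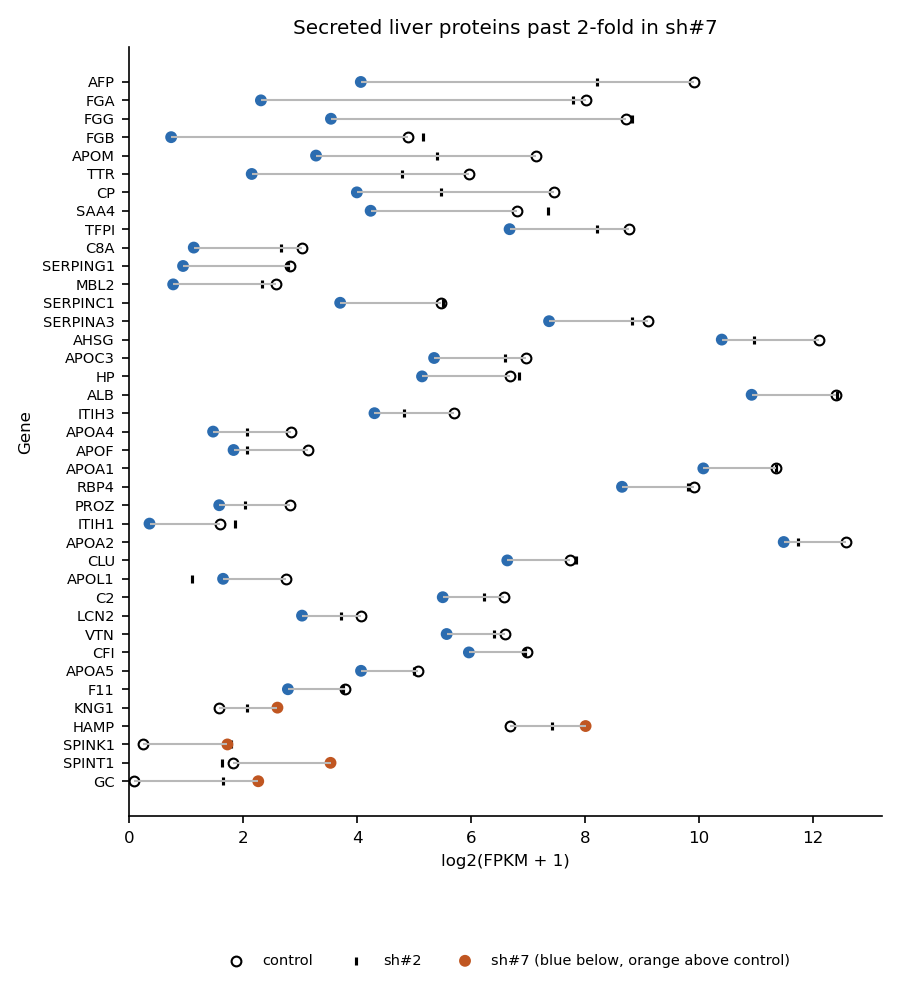
Levels of 39 of the 40 secreted liver protein genes past 2-fold with sh#7, as log2(FPKM + 1), 1 library each (1 gene not reported here by name is not drawn), ordered by the difference between sh#7 and control. Open circles are the control, ticks sh#2 and filled circles sh#7 (blue below the control, orange above); 34 genes lie to the left of the control, led by AFP and the fibrinogen chains, and for FGA, FGB and FGG the tick stays near the open circle.

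Transcription factors of the hepatocyte differed less than the secreted products. Of 23 compared, 3 were past 2-fold lower and 1 higher, with a relative median of -0.22. HNF4A was at 93.1, 97.5 and 81.3 FPKM, FOXA2 at 46.5, 39.4 and 41.01 FPKM and FOXA1 at 25.7, 42.2 and 42.1 FPKM, all within 2-fold. The C/EBP family went apart: CEBPA, which holds back division in mature hepatocytes, was past 2-fold higher at 35.5, 71.9 and 121 FPKM, while CEBPD, an acute phase activator, was past 2-fold lower at 49.9, 40.8 and 13.9 FPKM and CEBPB lay below the control at 58.6, 55.4 and 33.3 FPKM. The other lower members were NR0B2, the corepressor SHP, at 31.4, 17.7 and 11.4 FPKM and CREB3L3, a membrane-bound factor of the fasting and acute phase responses, at 8.94, 7.30 and 3.10 FPKM. Genes that carry cytokine signals such as interleukin-6 to acute phase genes went both ways. Above the control were IL6R at 10.03, 10.3 and 20.5 FPKM, IL6ST at 16.2, 19.2 and 28.3 FPKM and STAT3 at 41.2, 49.2 and 54.9 FPKM. JAK1 was past 2-fold higher at 12.2, 15.9 and 27.97 FPKM, a call that median-of-ratios scaling removed. SOCS3, a feedback target of STAT3, was low in all libraries at 2.03, 1.69 and 0.529 FPKM, and the oncostatin M receptor OSMR was past 2-fold lower at 25.2, 22.1 and 10.2 FPKM. In this list of 19 compared genes, 1 was past 2-fold higher and 1 lower (5.26% each, against 2.35% and 2.48% of all genes). Of the 19, 10 lay above the median of all genes and 9 below it, with a relative median of 0.25. Under median-of-ratios scaling 0 were past 2-fold higher and 2 lower.

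Glycolysis genes and targets of the hypoxia-inducible factor (HIF) were the next group, with no member past 2-fold higher. HIF is a transcription factor that is destroyed in normal oxygen and, when stable, raises glucose uptake, glycolysis and lactate output. Of 23 compared glycolysis and lactate genes, 8 were past 2-fold lower (34.8%) and 22 lay below the median of all genes. Of 29 hypoxia targets outside glycolysis, 12 were past 2-fold lower (41.4%, against 2.48% of all genes) and 29 lay below that median. The relative medians were -0.97 and -0.93. The glycolysis share of all FPKM was 2.34% in the control library, 1.88% with sh#2 and 1.54% with sh#7.

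The genes past 2-fold lower stood at the entry, the middle and the exit of the pathway. The glucose transporter SLC2A1 was at 228, 118 and 83.4 FPKM and hexokinase 2 (HK2), which traps glucose in the cell, at 55.8, 34.4 and 18.3 FPKM. PFKFB4, which sets the level of an activator of phosphofructokinase, was at 22.02, 15.1 and 7.001 FPKM, the aldolase ALDOC at 70.8, 48.1 and 23.2 FPKM and phosphoglycerate kinase (PGK1) at 565, 365 and 263 FPKM. Lactate dehydrogenase A (LDHA) was at 1400.4, 984 and 587 FPKM, and PDK1, the kinase that keeps pyruvate out of the mitochondrion, at 17.01, 10.3 and 6.25 FPKM. The most abundant enzymes stayed within 2-fold but below the control: GAPDH was at 3457, 3244 and 2174 FPKM, ENO1 at 2343, 1632 and 1334 FPKM and ALDOA at 1502, 1198 and 1010.1 FPKM. PKM2 and PFKL were close to the control, at 1012, 719.8 and 941 FPKM and at 115, 89.3 and 109 FPKM. In every gene named past 2-fold here the sh#2 level lay between the other libraries.

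Outside glycolysis, BNIP3, a receptor for removal of mitochondria, was at 273, 139 and 75.2 FPKM. Carbonic anhydrase 9 (CA9), which handles acid at the cell surface, was at 42.8, 25.9 and 17.8 FPKM, and the angiogenic factor VEGFA at 80.4, 75.8 and 37.1 FPKM. EPO, the red cell hormone, was at 8.57, 9.63 and 1.99 FPKM. P4HA1 and PLOD2, hydroxylases of collagen, were at 95.3, 53.9 and 33.6 FPKM and at 132, 89.4 and 62.5 FPKM, and the collagen crosslinker LOX at 42.7, 17.1 and 13.7 FPKM. EGLN3, an oxygen sensor that HIF itself induces, was at 5.66, 2.07 and 1.77 FPKM, and INSIG2, a brake on sterol synthesis, at 108, 59.2 and 49.3 FPKM. Of these genes, VEGFA and EPO were near the control with sh#2 and low with sh#7 alone, while LOX and EGLN3 were already low with sh#2. MIF, at 618, 608 and 577 FPKM, and DDIT4, at 136, 138 and 109 FPKM, stayed within 2-fold.

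The HIF core motif is ACGTG, searched on both strands, so that a palindrome around it counts as 2 matches. It was in 25.9% of all windows, in 49.3% of windows of the glycolysis and hypoxia lists (36 of 73) and in 72.0% of windows of their members past 2-fold lower (18 of 25). Hypoxia lists hold genes known as HIF targets, so a high share is built into them. Among all genes past 2-fold lower the share was 27.4%, near that of all genes. The upstream windows are printed for LDHA, PGK1 and BNIP3, where the motif occurs, and for SLC2A1, which has none and whose difference of -1.44 lay between those of LDHA (-1.25) and BNIP3 (-1.85). The 250 bases run as above, with matches in capitals.
LDHA (chr11:18394313-18394562, plus strand, the first of 2 RefSeq windows): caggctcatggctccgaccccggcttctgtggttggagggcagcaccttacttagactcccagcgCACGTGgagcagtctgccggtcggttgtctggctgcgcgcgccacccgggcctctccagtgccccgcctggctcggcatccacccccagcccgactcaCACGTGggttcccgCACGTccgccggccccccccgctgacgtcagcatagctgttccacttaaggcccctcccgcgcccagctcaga
PGK1 (chrX:78103998-78104247, plus strand): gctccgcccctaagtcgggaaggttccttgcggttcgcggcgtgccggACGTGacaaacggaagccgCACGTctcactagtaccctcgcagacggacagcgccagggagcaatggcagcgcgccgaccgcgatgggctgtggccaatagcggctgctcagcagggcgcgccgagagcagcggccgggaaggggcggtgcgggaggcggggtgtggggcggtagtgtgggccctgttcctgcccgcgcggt
BNIP3 (chr10:131981924-131982173, minus strand): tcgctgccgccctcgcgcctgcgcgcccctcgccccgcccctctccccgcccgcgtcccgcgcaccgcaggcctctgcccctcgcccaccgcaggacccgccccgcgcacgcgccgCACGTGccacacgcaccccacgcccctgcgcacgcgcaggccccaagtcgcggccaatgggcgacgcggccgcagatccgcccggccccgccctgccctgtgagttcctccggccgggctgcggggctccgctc
SLC2A1 (chr1:42958869-42959118, minus strand): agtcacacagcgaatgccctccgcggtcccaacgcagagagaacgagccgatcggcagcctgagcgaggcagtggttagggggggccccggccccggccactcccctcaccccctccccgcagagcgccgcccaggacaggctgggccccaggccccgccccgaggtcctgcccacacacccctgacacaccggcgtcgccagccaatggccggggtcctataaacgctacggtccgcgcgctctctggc
LDHA had 5 matches, PGK1 2 and BNIP3 2, and no match in SLC2A1 says only that these letters are not in this window.

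Genes of gluconeogenesis and glycogen use, which serve the fasting liver, were low alongside. Of 16 compared, 4 were past 2-fold lower (25%, against 2.48% of all genes) and none higher. IGFBP1, a classical target of insulin and FOXO1, was the largest, with the values given above, a 23.9-fold ratio of control to sh#7 FPKM. Glucose-6-phosphatase (G6PC), which releases free glucose, was at 2.62, 0.348 and 0.0742 FPKM, near the limit of measurement with sh#7. The glycogen brancher GBE1 was at 29.8, 23.6 and 13.6 FPKM, the mitochondrial PCK2 within 2-fold at 116, 117 and 76.2 FPKM, and FOXO1 itself at 6.30, 5.82 and 6.31 FPKM. In the insulin-like growth factor system, IGF2, a fetal growth factor of liver, was at 2138, 1914 and 291 FPKM and so was low with sh#7 alone. Its receptors were within 2-fold, with IGF1R at 6.61, 5.17 and 7.68 FPKM and IGF2R, which clears IGF2, at 62.5, 67.2 and 86.7 FPKM. IGFBP3 was at 2.73, 0.767 and 0.464 FPKM, and IGFBP7 was the member past 2-fold higher, at 1.49, 6.22 and 5.82 FPKM.

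**Figure D3:**
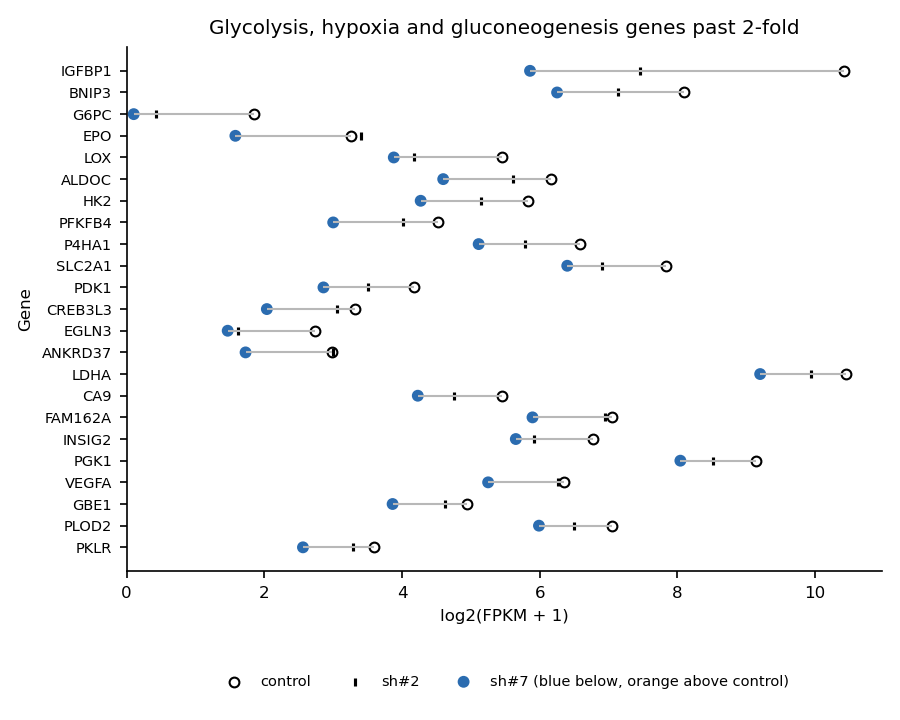
Levels of 23 of the 24 genes past 2-fold with sh#7 in the lists of glycolysis, hypoxia targets, and gluconeogenesis and glycogen, as log2(FPKM + 1), 1 library each (1 gene not reported here by name is not drawn). Open circles are the control, ticks sh#2 and filled circles sh#7; every filled circle lies to the left of its open circle, and IGFBP1 spans the longest distance.

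Lipid genes did not go one way. In the synthesis and assembly list, 5 of 28 compared genes were past 2-fold higher and 3 lower (17.9% and 10.7%, against 2.35% and 2.48% of all genes). The relative median was 0.02. The higher genes were ACACA, the first committed enzyme of fatty acid synthesis, at 10.1, 15.2 and 21.6 FPKM, GPAM and DGAT2, the first and last acyltransferases of triglyceride synthesis, at 9.48, 17.4 and 32.4 FPKM and at 28.96, 51.5 and 73.3 FPKM, and the acyl and acetyl activators ACSL1 and ACSS1, at 10.5, 25.9 and 26.5 FPKM and at 12.1, 30.2 and 38.4 FPKM. Both other scalings removed the call of ACACA. Lower were the elongase ELOVL2 at 35.2, 29.4 and 10.1 FPKM, ACSL4, which prefers arachidonate, at 162, 111 and 68.1 FPKM, and MTTP, given above. FASN and SCD were within 2-fold, at 103, 148 and 167 FPKM and at 536, 504 and 536 FPKM. Among droplet proteins and lipases, PLIN2, the coat of lipid droplets, was past 2-fold lower at 331, 193 and 134 FPKM, the secreted phospholipase PLA2G2A at 517, 117 and 56.9 FPKM, and the hepatic lipase LIPC past 2-fold higher at 8.55, 8.59 and 22.8 FPKM. Of 26 oxidation genes, CPT1A, the gate of fatty acids into mitochondria, was past 2-fold higher at 6.54, 2.27 and 14.3 FPKM, a call removed by both scalings, and none was lower. Cholesterol synthesis genes stayed near the median of all genes, at -0.09. Past 2-fold lower were 2 of 30 (6.67%, against 2.48% of all genes), among them INSIG2, given above.

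Detoxification enzymes held the most abundant genes of the higher set. ALDH1A1, which makes retinoic acid and clears aldehydes, had the largest gain of FPKM of any gene, at 319.6, 658 and 1559.95 FPKM. The glutathione transferases of the alpha class were at 23.4, 101 and 103 FPKM for GSTA1 and at 1.24, 5.86 and 15.6 FPKM for GSTA2, and the aldo-keto reductases at 247, 361 and 609.5 FPKM for AKR1C1 and at 126, 286 and 602 FPKM for AKR1C2. Within each of these pairs the copies are near-identical and the division of reads is uncertain, although both copies were higher. AKR1B10, a reductase of retinal and aldehydes, was at 40.2, 61.8 and 106 FPKM, and its close copy AKR1B15 at 2.09, 2.73 and 6.08 FPKM. ALDH2, the mitochondrial acetaldehyde enzyme, was at 119.5, 147 and 289 FPKM, the carboxylesterase CES1 at 65.1, 207 and 277 FPKM and the epoxide hydrolase EPHX1 at 53.7, 66.3 and 136 FPKM. In the lists, 4 of 9 aldo-keto reductases (44.4%) and 3 of 17 aldehyde and alcohol dehydrogenases (17.6%) were past 2-fold higher. So were 2 of 8 esterases and epoxide hydrolases (25%) and 2 of 21 glutathione genes (9.52%), against 2.35% of all genes. GPX3, a secreted glutathione peroxidase, was the glutathione gene past 2-fold lower, at 392, 195 and 114 FPKM. Most other glutathione genes stayed within 2-fold, among them GPX4 at 373, 364 and 363 FPKM and MGST1 at 237, 190.01 and 262 FPKM.

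NRF2, a factor that responds to electrophiles and oxidants, controls many of these enzymes. Of 25 compared targets, 21 lay above the median of all genes, with a relative median of 0.33. None was past 2-fold lower, and 8 were past 2-fold higher (32%, against 2.35% of all genes), 7 under median-of-ratios scaling. Outside the aldo-keto reductases they included UGDH, which makes the sugar donor for glucuronidation, at 123, 143 and 277 FPKM (the call that this scaling removed), the bile acid and conjugate exporter ABCC3 at 8.85, 5.50 and 26.5 FPKM, EPHX1, and the reductase PTGR1 at 29.5, 12.99 and 86.02 FPKM. ABCC3 and PTGR1 lay below the control with sh#2. Other targets were above the control with sh#7 but within 2-fold. Among them NQO1 was at 195, 191 and 262 FPKM, TXNRD1 at 62.1, 69.7 and 122 FPKM and SRXN1 at 35.2, 43.7 and 63.9 FPKM. GCLM was at 7.42, 9.13 and 11.3 FPKM and HMOX1 at 18.2, 19.5 and 23.6 FPKM. The core of the antioxidant response element, TGACNNNGC on either strand, was in 27.3% of 22 windows of the target list, in 12.2% of windows of all genes past 2-fold higher and in 14.9% of all windows.

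Metal-handling genes gave a mixed picture. SLC30A3, a zinc transporter best known from synaptic vesicles, was at 1.62, 2.25 and 19.9 FPKM, so that sh#7 alone was high. The metallothioneins MT1X, MT1F and MT1M, cysteine-rich zinc and copper binders, were past 2-fold higher at 24.7, 37.5 and 74.5 FPKM, at 48.6, 54.8 and 120.3 FPKM and at 0.458, 0.809 and 1.95 FPKM (MT1M under neither other scaling), while the most abundant member MT2A was within 2-fold at 382, 474 and 549 FPKM. The family is of near-identical genes, so the division of reads among them is uncertain. In the iron list, HAMP and the ferrireductase STEAP3, at 10.7, 14.5 and 25.7 FPKM, were past 2-fold higher, and TFR2, an iron sensor of hepatocytes, was past 2-fold lower at 20.04, 14.6 and 6.37 FPKM with CP and HP. The import receptor TFRC, at 146, 135 and 122 FPKM, and the ferritin chain FTH1, at 1413, 1344 and 1645 FPKM, were within 2-fold.

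Among matrix, adhesion and cytoskeletal genes, several transcripts that were near 0 in the control library were measurable with sh#7. NPNT, an extracellular ligand of integrin alpha 8 beta 1, had the largest positive difference, 3.34, and was at 0.349, 4.05 and 12.7 FPKM. ITGA3, the laminin-binding integrin chain, was at 0.293, 0.374 and 3.93 FPKM, close to the control with sh#2. Other matrix genes past 2-fold higher were LAMC1 at 59.8, 97.2 and 130.5 FPKM, LAMA3 at 0.772, 1.98 and 3.20 FPKM, perlecan (HSPG2) at 7.21, 6.18 and 16.8 FPKM and COL6A1 at 2.97, 6.16 and 8.79 FPKM, with the calls of LAMC1 and HSPG2 removed by median-of-ratios scaling. Thrombospondin 1 (THBS1) was at 16.6, 33.8 and 63.98 FPKM and SPARC, a collagen-binding glycoprotein, at 3.22, 12.8 and 9.87 FPKM. In all, 8 of 28 compared matrix and integrin genes were past 2-fold higher and 2 lower (28.6% and 7.14%, against 2.35% and 2.48% of all genes). The other 19 listed genes were too low to compare. ITGA3 reached the mean of 1 FPKM through sh#7 alone, and NPNT and LAMA3 only through the knockdown libraries. For these genes the filter itself favoured a higher call, so the count is no support for a rise of the list. The lower genes were the collagen receptor chain ITGA2 at 14.5, 9.15 and 5.44 FPKM and vitronectin (VTN) at 95.3, 84.03 and 46.6 FPKM. Fibronectin (FN1), the most abundant of them, was within 2-fold at 1933, 1316 and 1333 FPKM.

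Actin genes included FSCN1, which bundles filaments in protrusions, at 65.6, 136 and 294 FPKM, and ENAH, which extends filaments at the leading edge, at 10.1, 13.6 and 54.1 FPKM. The contractile genes TAGLN, MYL9 and CNN1 were past 2-fold higher at 139, 201 and 311 FPKM, at 52.9, 61.1 and 118 FPKM and at 0.710, 0.546 and 3.32 FPKM, and median-of-ratios scaling removed the calls of TAGLN and MYL9. N-cadherin (CDH2) was at 9.69, 4.31 and 26.3 FPKM, below the control with sh#2 and above it with sh#7. Other genes linked to mesenchymal cells were past 2-fold lower, among them CTGF at 186, 84.5 and 57.4 FPKM and LOX, and the factors SNAI1 and ZEB1 were within 2-fold at 2.16, 1.87 and 1.65 FPKM and at 4.46, 3.89 and 3.96 FPKM. E-cadherin (CDH1) was low throughout, at 2.24, 0.859 and 1.77 FPKM. KRT19, a keratin of bile duct and progenitor cells, was past 2-fold higher at 144, 243 and 324 FPKM, a call that median-of-ratios scaling removed, and the tight junction gene CLDN4 past 2-fold lower at 35.2, 12.9 and 16.99 FPKM. The mesenchymal list as a whole had 5 members higher and 3 lower of 22 (22.7% and 13.6%, against 2.35% and 2.48% of all genes). The relative median was -0.05.

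The remaining genes of the 15 highest belong to no common list. RBPMS2, an RNA-binding protein of smooth muscle, was at 1.18, 1.22 and 20.5 FPKM and GPR56, an adhesion receptor also called ADGRG1, at 1.99, 2.82 and 25.02 FPKM. BEX1, a small adaptor of growth factor signalling, was at 11.5, 21.7 and 85.9 FPKM, and TMEM54, a membrane protein, at 2.36, 3.97 and 18.6 FPKM. NUPR1, a stress-induced chromatin protein, was at 30.5, 57.2 and 152 FPKM, and FSTL3, which binds activin, at 32.5, 32.7 and 133 FPKM. RBPMS2, GPR56 and FSTL3 were close to the control with sh#2.

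**Figure D4:**
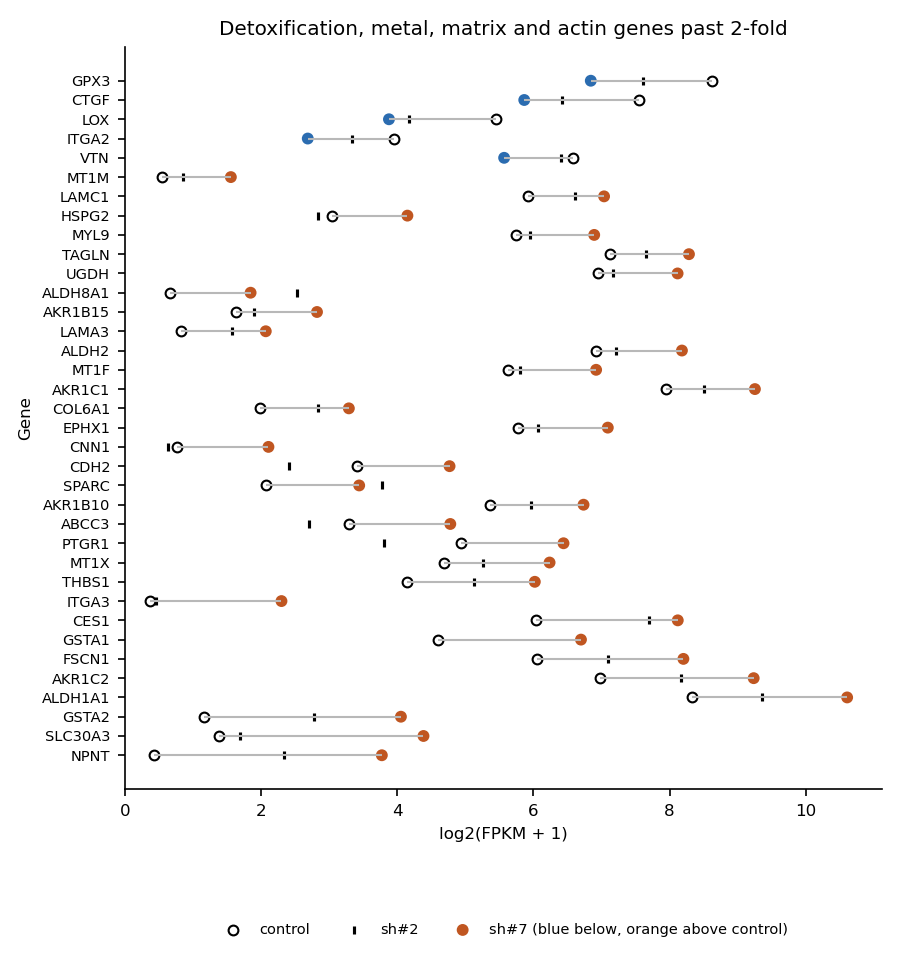
Levels of 36 of the 38 genes past 2-fold with sh#7 in the detoxification, metallothionein and zinc, matrix and integrin, and mesenchymal and actin lists, as log2(FPKM + 1), 1 library each (2 genes not reported here by name are not drawn). Open circles are the control, ticks sh#2 and filled circles sh#7 (orange above the control, blue below; for GSTA1 the tick is hidden behind the filled circle); most genes lie to the right of the control, with NPNT, SLC30A3 and GSTA2 the furthest.

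Of 19 compared genes of the G1 phase, 3 were past 2-fold higher (15.8%, against 2.35% of all genes) and none lower. CCND1, which drives cells through G1, was at 91.7, 128 and 287 FPKM, and the cyclin-dependent kinase inhibitor CDKN1A was past 2-fold higher at 43.8, 57.9 and 96.7 FPKM, a call that median-of-ratios scaling removed. CDKN2A, another such inhibitor, was past 2-fold higher from a low level, at 0.855, 2.57 and 3.36 FPKM. None of 40 replication genes and none of 29 mitosis genes was past 2-fold, against 2.35% of all genes higher and 2.48% lower. Their relative medians were 0.24 and -0.10, and MKI67, the usual proliferation marker, was at 17.6, 21.6 and 26.3 FPKM. Replication genes leaned one way, since 34 of the 40 lay above the median of all genes; the helicase subunit MCM5 was at 31.3, 38.7 and 63.04 FPKM. Among beta-catenin genes, the feedback inhibitors AXIN2 and NKD1 were past 2-fold higher at 26.4, 31.4 and 59.5 FPKM and at 42.4, 58.2 and 86.2 FPKM, calls that median-of-ratios scaling removed, and the secreted antagonist DKK1 was past 2-fold lower at 628, 1019 and 263 FPKM. HepG2 is known to carry a stabilising deletion in beta-catenin. In the ERK feedback list of 17 compared genes, 2 were past 2-fold lower and 1, CCND1, higher (11.8% and 5.88%, against 2.48% and 2.35% of all genes). The relative median was -0.47. The lower genes were DUSP6, the phosphatase that limits ERK, at 54.02, 20.9 and 7.90 FPKM, and IER3 at 385, 237 and 151 FPKM. Among members within 2-fold, SPRY1 was at 15.1, 10.7 and 7.16 FPKM and ETV4 at 181, 128 and 114 FPKM.

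The rest of the m6A machinery stayed within 2-fold. Of 26 compared genes FTO alone was past it (3.85% lower), a share near the 2.48% of all genes. The relative median was 0.10. METTL16, a writer of m6A on U6 RNA and MAT2A, had the largest difference after FTO, at 6.31, 7.96 and 11.2 FPKM, and PCIF1, the writer of the related mark beside the cap that FTO also removes, was at 18.5, 21.2 and 27.9 FPKM. The reader YTHDF1 was at 34.1, 38.8 and 52.4 FPKM, and METTL3, the catalytic subunit of the main writer, lay slightly below the control at 40.2, 41.6 and 32.1 FPKM. The other demethylase, ALKBH5, was at 36.4, 34.1 and 37.1 FPKM.

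Housekeeping complexes held few or no genes past 2-fold. The shares of all genes were small too, at 2.35% higher and 2.48% lower. None of 79 cytosolic ribosomal protein genes was past 2-fold, though 75 lay below the median of all genes and their share of FPKM was 17.5% in the control library and 16.1% with sh#7. RPL38, the most different in amount, was at 4929, 4187 and 3619 FPKM. None of 37 proteasome and none of 23 endoplasmic reticulum chaperone genes was past 2-fold; the chaperones, which fold secreted proteins, lay at a relative median of -0.41, with P4HB at 1456, 1114 and 1027 FPKM and CALR at 1869.8, 1731 and 1687 FPKM. Of 78 respiratory chain genes 1 was past 2-fold, ATP5L, lower at 86.3, 99.6 and 41.5 FPKM.

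**Figure D5:**
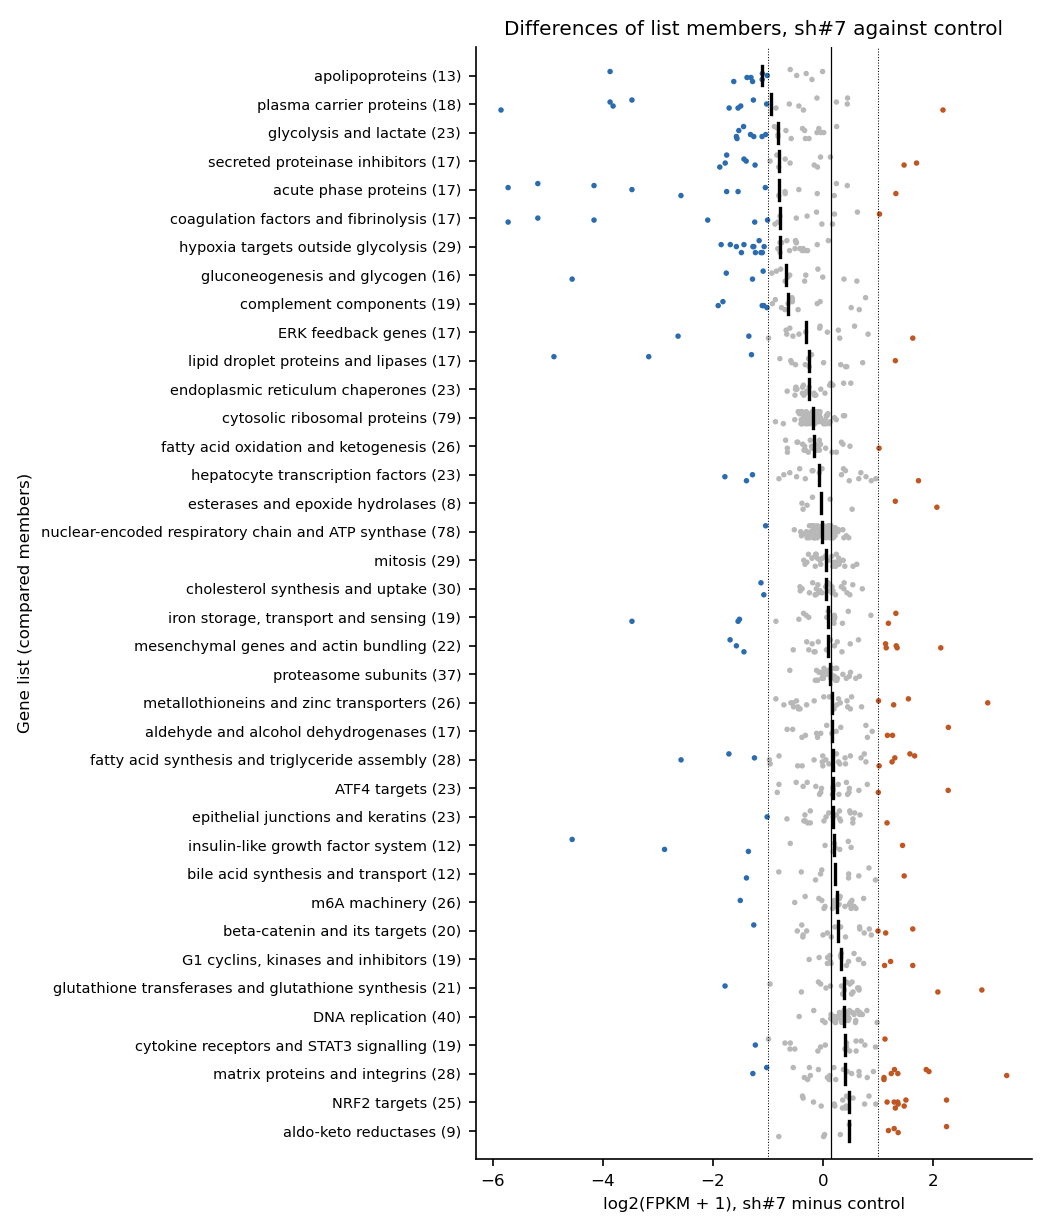
Difference of each compared member (points) of 38 gene lists (1 list not reported here is not drawn), as log2(FPKM + 1) with sh#7 minus control, with the list median as a bar and the number of compared members in parentheses. Blue and orange points are past 2-fold lower and higher (dotted lines at 2-fold), and the solid line is the median of all compared genes, 0.16; the secretory, glycolysis and hypoxia lists sit at the top with medians left of the line, and ribosomal, respiratory and proteasome genes each cluster tightly, the ribosomal genes left of the line.

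The labelled cell type was checked against its markers. Of the 24 hepatocyte and hepatoma markers, 21 could be compared, 9 of them past 2-fold lower with sh#7 (42.9%, against 2.48% of all genes). The summed level of the list was 29441 FPKM in the control library, 22052 with sh#2 and 14528 with sh#7. ALB, APOA1, APOA2, HNF4A and the oncofetal proteoglycan GPC3, at 1821, 1378 and 1506 FPKM, were well expressed in all 3 libraries. Of these, ALB, APOA1 and APOA2 were past 2-fold lower with sh#7. Other markers of the list were low with sh#7: AFP at 15.7, TTR at 3.43, FGB at 0.662 and G6PC at 0.0742 FPKM. ARG1 was at 4.76, 9.44 and 0.225 FPKM. Markers of adult liver zonation were near 0 throughout, with CYP3A4 at 0.0412, 0.0735 and 0.0992 FPKM and CYP2E1 at 0.131, 0.0865 and 0.162 FPKM.

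Most markers that define other cell types were listed at or near 0. In the blood and immune list PTPRC, CD3E, MS4A1, HBA2, HBB and FCGR3A were listed at 0 in all libraries, 4 of 16 could be compared, and its summed level of 3292, 1392 and 377 FPKM was nearly all LYZ. LYZ, the lysozyme of secretory and myeloid cells, was at 3216, 1321 and 297 FPKM, while CD68 was at 39.3, 30.8 and 23.3 FPKM and CD74 at 33.9, 37.2 and 53.3 FPKM. Of 16 fibroblast and stellate markers COL1A2, COL3A1, LUM, DCN, THY1, VIM, LRAT and FAP were listed at 0 in all; the summed level was 89.97, 65.4 and 76.5 FPKM. None of 11 endothelial markers reached the level needed for comparison, with sums of at most 0.282 FPKM, and KDR, TEK and CLEC4G were listed at 0. Of 11 neural markers 3 could be compared, the sums were 198, 169.98 and 154 FPKM, mostly TUBB3 and ENO2, and NEFL and NEFM were at 0. Of 10 kidney markers PAX8 alone could be compared, at 2.76, 1.80 and 2.41 FPKM.

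Muscle and bile duct markers were the lists in which several members were expressed. Of 17 muscle markers 7 could be compared, 4 past 2-fold lower and 2 higher (57.1% and 28.6%, against 2.48% and 2.35% of all genes). The summed level was 268, 268 and 59.04 FPKM. TNNI2, the inhibitory troponin of fast muscle, made up most of it in the control and sh#2 libraries, at 189 and 227 FPKM. With sh#7 it was at 6.27 FPKM, a small part of the sum. The myosin genes MYH7, MYH6 and MYL2 were at or near 0 and ACTC1 and TNNT3 were listed at 0. The creatine kinase CKM was past 2-fold higher, at 1.21, 1.01 and 11.2 FPKM, and the slow troponin C gene TNNC1 lower, at 56.2, 26.1 and 22.4 FPKM. Of 14 bile duct markers 8 could be compared, KRT19 was past 2-fold higher as given above and none lower; SOX9 was at 77.3, 69.5 and 59.1 FPKM and EPCAM at 143, 159 and 211 FPKM, while CFTR and AQP1 were listed at 0. The summed bile duct level was 1265, 1582 and 1970.4 FPKM. Whether a difference in the cells present had a part in the values above was not tested.

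Beside these values, the sh#2 library, which shares the control, differed in its place from gene to gene. It stayed near the control for the fibrinogen chains, IGF2, HEY1, TNNI2, RBPMS2, GPR56, SLC30A3 and FSTL3, for which sh#7 stood alone. It lay between the control and sh#7 for AFP, FABP1, IGFBP1, CP, APOM and ALDH1A1. GSTA1 was as high with sh#2 as with sh#7. Differences between the knockdown lines were not tested.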

How the data were processed

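Total RNA of 3 HepG2 cultures was sequenced with a standard Illumina protocol, per the labels, and the authors deposited 1 table of FPKM values per gene. The submitters' processing notes name STAR 2.4.0j and Cufflinks 2.2.1, beside HTSeq, and the genome build hg19, without saying which tool made the values. FPKM is scaled to the library total, so large differences in abundant genes move every other value; 26 symbols altered to dates by a spreadsheet were kept unnamed. Differences of log2(FPKM + 1) were computed for genes whose mean FPKM reached 1 (Python 3.11.15, pandas 2.3.3), and no test was possible with 1 library per group. The calculation was tested on simulated data. Fragment numbers are estimates from GENCODE transcript lengths and the estimated depth, and intervals on them are exact (Clopper-Pearson) for those estimates only. Chromosomes and promoter windows came from RefSeq (GRCh38.p14), matched by symbol.

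The comparison, its 47 gene lists and its calculations were chosen with earlier results of these data known. Genes were named by rule: FTO; the 15 with the largest difference in each direction at a mean of at least 5 FPKM; in each list the 4 with the largest difference and the 2 highest in the control; the 10 largest losses and 6 largest gains of FPKM; and genes past 2-fold in opposite directions with sh#7 and sh#2. Genes named outside it were chosen after their values were seen: ACACA, ACSL1, ACTC1, ACY3, ALDOA, ALKBH5, APOA5, APOB, APOC1, APOE, AQP1, C4A, C4B, CA9, CCL15, CCPG1, CD3E, CD59, CDH1, CDH24, CEBPB, CFI, CFTR, CLEC4G, CNN1, COL1A2, COL3A1, COL6A1, CYP2E1, CYP3A4, DCBLD2, DCN, DDIT4, DGAT2, EGLN3, EPB41L2, EPCAM, F11, F5, FAP, FASN, FCGR3A, FOXA1, FOXA2, FOXO1, GC, GCLM, HBA2, HBB, HMOX1, HSPG2, IGF1R, IGF2R, IL6ST, INSIG1, ITGA2, KDR, KNG1, LAMA3, LAMC1, LCN2, LDHA, LDHB, LRAT, LUM, METTL14, METTL3, MGST1, MS4A1, MYH6, MYH7, MYL2, MYL9, NEFL, NEFM, NQO1, ORM1, ORM2, PCK2, PDK1, PFKL, PGK1, PKM2, PLOD2, PROC, PROS1, PROZ, PTPRC, RBP4, REPIN1, SAA4, SERPINA6, SERPINA7, SNAI1, SOX9, SPINK1, SRXN1, STEAP3, TAGLN, TEK, TFRC, THY1, TNNT3, TXNRD1, UGDH, VEGFA, VIM, VTN and ZEB1. Alternatives were a pseudocount of 0.1, a minimum mean of 5 FPKM, no filter, median-of-ratios and upper-quartile scaling, a threshold of 1.5-fold and, chosen after seeing the data, equal summed FPKM. Some genes counted in the lists are not reported here by name.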

Additional observations from a re-analysis of the deposited data

Results flagged for a closer look

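In 6 genes the sh#7 and sh#2 libraries lay past 2-fold from the shared control in opposite directions, on the log2(FPKM + 1) scale. The difference between the lines was not tested. Higher with sh#7 and lower with sh#2 were CDH2, which encodes N-cadherin, at 1.35 against -1.01, CPT1A, the carnitine acyltransferase of the mitochondrial outer membrane, at 1.02 against -1.21, and the prostaglandin and leukotriene reductase PTGR1 at 1.51 against -1.12. Lower with sh#7 and higher with sh#2 were the amino acid transporter SLC6A14 at -2.11 against 1.13, the phospholipid flippase ATP10D at -1.37 against 1.41, and MAP7D2, a microtubule-associated protein, at -1.12 against 1.27. In the order control, sh#2, sh#7, SLC6A14 was at 10.1, 23.2 and 1.57 FPKM, ATP10D at 2.32, 7.84 and 0.284 FPKM and MAP7D2 at 7.06, 18.4 and 2.72 FPKM.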

How the results depend on the processing

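No paired analysis was possible because there was 1 library per group, and leaving out a replicate was impossible for the same reason. FTO was lower with sh#7 under every alternative run, at -1.78 with a pseudocount of 0.1, which raises the difference of a low gene, and at -1.65 under median-of-ratios scaling. The count of genes past 2-fold higher was 394 at that pseudocount. It was 146 where the mean had to reach 5 FPKM, since fewer genes were compared. At 1.5-fold, 1064 genes were higher and 684 lower. The other 15 of these summary values stayed within 1.5 times of the count or within the counting interval, from 192 to 306 higher genes and from 200 to 380 lower genes. Of 121 named genes past 2-fold, 0 of 707 values turned in sign. These genes were chosen for a difference of at least 1, and the scalings moved genes by 0.16 or 0.11, so a turn was hardly possible. Their sizes were less steady. Under median-of-ratios scaling, 185 of 228 named genes left their counting interval or had no interval, and under upper-quartile scaling 164 did. Of 269 list medians relative to all genes, 13 turned in sign, 5 of them by over 0.1: esterases went from -0.18 to 0.19 at the minimum mean of 5 and to 0.057 without a filter, where cholesterol synthesis went from -0.09 to 0.033, mitosis from -0.10 to 0.053 and proteasome subunits from -0.02 to 0.13. All 29 mitosis genes were already compared with the filter, so without it only the median of all genes, to which theirs is relative, could move. For the other lists the cause was not tested. Depth limits low genes most: 67 higher genes were under 1 FPKM in the control library and 46 lower genes under 1 FPKM with sh#7. Such genes reached the mean of 1 FPKM only through the other libraries, which favours their calls.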

Other observations

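A pair of signalling pathways outside the lists above was described after the values were seen, so the choice of genes supports nothing. Genes of the TGF-beta, activin and BMP pathways went both ways with sh#7. Of 34 compared genes 6 were past 2-fold higher and 2 lower (17.6% and 5.88%, against 2.35% and 2.48% of all genes). The median relative to all genes was 0.14. The inhibitory SMADs were at 11.7, 13.03 and 36.3 FPKM for SMAD7 and at 4.26, 4.56 and 9.63 FPKM for SMAD6 in the control, sh#2 and sh#7 libraries, the pseudoreceptor BAMBI at 15.9, 25.97 and 44.9 FPKM, and ID3, a direct target of BMP signals, at 39.2, 49.1 and 108 FPKM. The corepressor SKIL was at 1.79, 2.50 and 5.91 FPKM. Both other scalings removed the call of SMAD6. In this list hepcidin, another BMP target, is not counted. The activin binders went apart, with follistatin (FST) at 42.9, 16.6 and 3.44 FPKM and FSTL3 higher as given above, and the coreceptor TGFBR3 was past 2-fold lower at 53.9, 34.9 and 6.83 FPKM.

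In the Notch pathway 5 of 27 compared genes were past 2-fold lower and 2 higher (18.5% and 7.41%, against 2.48% and 2.35% of all genes). Beside HEY1, the lower genes included DLK1, a fetal liver ligand, at 389.8, 382 and 165 FPKM, the coactivator MAML2 at 8.71, 4.50 and 3.44 FPKM and the glycosyltransferase MFNG at 4.73, 3.27 and 1.38 FPKM, while the receptor NOTCH1 was past 2-fold higher at 0.441, 0.841 and 2.77 FPKM. HES1, the other common target, was within 2-fold at 17.03, 21.9 and 31.01 FPKM. Of 14 compared imprinted genes 3 were past 2-fold lower and 1 higher (21.4% and 7.14%, against 2.48% and 2.35% of all genes). The lower were IGF2, DLK1 and MEST, the last at 3.07, 0.438 and 0.149 FPKM. The higher was GRB10 at 1.20, 2.86 and 4.98 FPKM.

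Placed by chromosome, the median difference with sh#7 was 0.02 on chromosome 6, 0.07 on chromosome 14 and 0.08 on chromosome 4, and from 0.12 to 0.21 on the others, over 10821 genes with a place. With sh#2 the chromosome medians ran from 0.07 to 0.14.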
